A study of Mus musculus with 2 samples.

Results

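Interferon-stimulated genes were followed through serum stimulation and THOC5 depletion in mouse embryonic fibroblasts. They were Rtp4, Ifit1, Ifit2, Ifit3, Isg15, Irf7, Irf1, Oasl2 and Usp18, 9 genes out of the 28312 genes named on the arrays. Every non-control probe carrying one of these names was taken, which gave 11 probes, since Isg15 and Irf1 each had 2. The 9 genes were chosen by measured values of these same arrays (their processed signals, their serum ratios and their levels in THOC5-depleted over control cells), so their counts and medians are given here as descriptions and no test was run on them. All 9 genes, read by their brightest probe, were well above background in all 4 channels.

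The cells were immortalized MEF of the background C57BL/6 x B6:129 Ola and carried Rosa26ERT2 Cre: THOC5 (flox/flox) in both groups, that is, floxed Thoc5 alleles together with a tamoxifen-inducible Cre recombinase expressed from the ubiquitously active Rosa26 locus. THOC5 is a subunit of the THO complex, which couples transcription to mRNA processing and nuclear export. Control cells received no tamoxifen, and THOC5-depleted cells received tamoxifen for 2 days according to the labels (the methods give 10 μM for 24 h, then 24 h of growth medium). Both groups were starved of serum for 24 h, and a portion of each was then given 20% fetal calf serum (FCS) for 1 h. Each group was read on 1 two-color array, with unstimulated cells in the Cy3 channel and stimulated cells in the Cy5 channel. The labels call the untreated cells wildtype although they carry the same floxed alleles and Cre, and no tamoxifen-treated cells without Cre or without floxed alleles were among the samples analysed here.

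There was 1 array per group and no dye swap, so no value has a biological replicate, serum and dye cannot be told apart within an array, and tamoxifen, Cre activity and loss of THOC5 cannot be told apart between arrays. The error given with a log2 value is the scanner software's own estimate for that spot and covers measurement only. On both arrays 43020 non-control spots were read, 62.1% to 64.4% of spots were well above background and 0 channels of spots were saturated. Thoc5 itself gave processed signals of 4808 and 3047 in control cells (unstimulated first, then stimulated, as in all pairs of signals given here) and 546 and 455 in THOC5-depleted cells. After scaling it was 7.10-fold lower in unstimulated and 5.39-fold lower in stimulated THOC5-depleted cells, in the direction of the labels. All 12 fibroblast markers were well above background on the control array and 11 of them on the THOC5-depleted array, Col1a1, Fn1, Vim and S100a4 among the brightest. Of the 12, 3 were 2-fold or more lower in unstimulated THOC5-depleted cells, compared with 3.25% of all genes. These were the collagen gene Col3a1 (log2 difference -1.13), the growth factor receptor gene Pdgfra (-1.27) and Lum, a small matrix proteoglycan gene that was well above background in control cells only and was at least 2.91-fold lower. Pdgfra also had serum log2 ratios of -1.06 and -0.17 on the 2 arrays. The part of these markers in the results was not tested.

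Interferon-stimulated genes are the effector genes of the antiviral state. Type I interferons bind the receptor chains IFNAR1 and IFNAR2, the receptor-bound kinases JAK1 and TYK2 become active, and the transcription factor complex ISGF3, which holds STAT2 and IRF9, then binds interferon-stimulated response elements (ISREs) in the promoters of these genes. Fibroblasts are a classical source of interferon beta, and many of these genes are also expressed at a low tonic level without infection.

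The promoters of the genes are shown first, because this element is the known common feature of the class and the genes differ in it near their annotated starts. RefSeq promoter windows of build GRCm38.p6, from 250 bases before to 50 bases after a transcript start, were found for 7 of the 9 genes, with 2 windows each for Irf1 and Ifit2. Rtp4 and Usp18 were not matched. The core of the ISRE was searched as GAAANNGAAA on both strands. It was present in the windows of Isg15, Ifit3 and Ifit1, 3 of 9 windows, and in 3.44% of all 32851 promoter windows. The stretches below are written 5′ to 3′ on the strand of the gene, end before the transcript start, and have every base of a core match in capitals. That of Isg15 is chr4:156200855-156200916 on the minus strand, that of Ifit3 is chr19:34583353-34583436 on the plus strand and that of Ifit1 is chr19:34640765-34640833 on the plus strand.
Isg15: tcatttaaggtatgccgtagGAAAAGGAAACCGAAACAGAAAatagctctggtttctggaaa
Ifit3: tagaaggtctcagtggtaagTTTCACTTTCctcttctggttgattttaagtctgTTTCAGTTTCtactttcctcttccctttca
Ifit1: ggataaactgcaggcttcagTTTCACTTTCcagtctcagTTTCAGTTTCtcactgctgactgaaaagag
In Isg15 there were 3 overlapping matches on the gene's own strand, which together ran from 78 to 57 bases before the start. In Ifit3 and Ifit1 there were 2 separate matches each, all on the opposite strand, where the element reads as its reverse complement.

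Other motifs were found in fewer windows of these genes. The core of the gamma-activated site (GAS), an element of interferon-gamma responses, was searched as TTCNNNGAA on both strands. It occurred in 1 window of Irf1, at 90 to 82 bases before the start, and in 1 window of Ifit2, compared with 8.3% of all windows. The NF-kB core, searched as GGGANNNNTCC, was found in 0 of the 9 windows and in 4.02% of all windows. The 3 motifs share no match position in these windows. A match is a description of letters, and no match says only that these letters are not in this window.

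**Figure D1:**
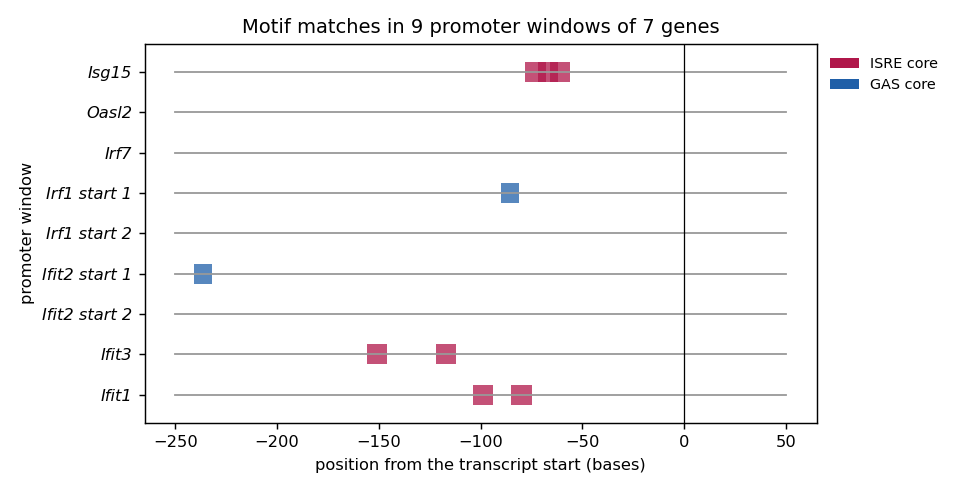
Matches to the ISRE core and the GAS core in 9 promoter windows of 7 genes, plotted by position from the transcript start in bases. The ISRE core lies within 156 bases before the start in Isg15, Ifit3 and Ifit1, and the windows of Oasl2 and Irf7 hold neither motif.

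The main pattern was a fall after serum in control cells that was smaller in THOC5-depleted cells. After 1 h of serum, 6 of the 9 genes were 2-fold or more lower in control cells, and 0 were 2-fold or more higher. With normexp and loess or a floor of 50 on the signals, 5 genes were 2-fold or more lower and Irf7 was not. In THOC5-depleted cells 0 of the 9 genes were past 2-fold in either direction. The median serum log2 ratio of the 9 genes was -1.27 in control cells, 2.42-fold lower, and -0.30 in THOC5-depleted cells, 1.23-fold lower. For comparison, in control cells 2.3% of 18814 genes were 2-fold or more lower and 2.89% were 2-fold or more higher. In THOC5-depleted cells these shares were 0.625% and 1.22% of 18574 genes, so fewer genes in all passed 2-fold after serum there. The median over all genes was -0.03 in the control and -0.02 in the depleted cells. In such bulk RNA, fewer cells of a type and less RNA per cell cannot be told apart.

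**Figure D2:**
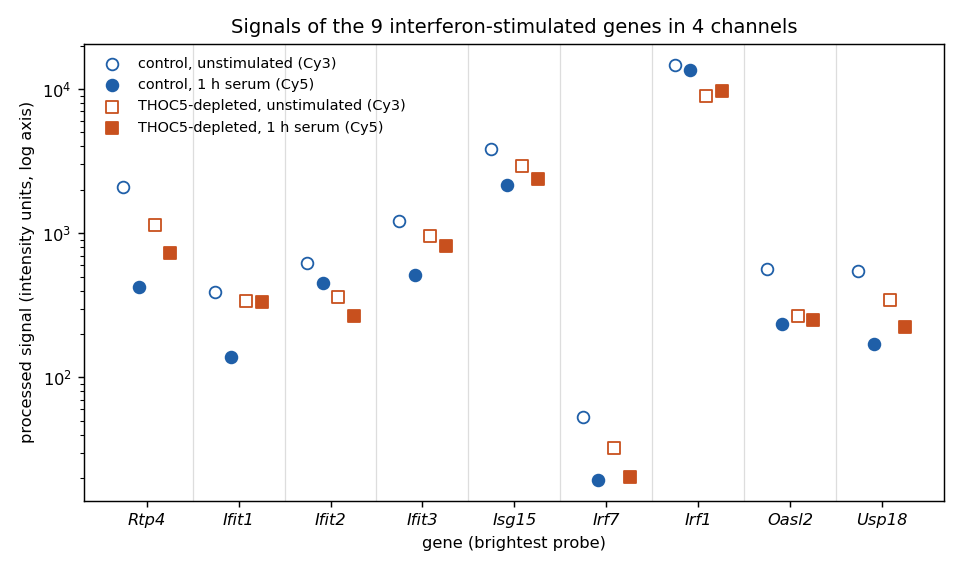
Processed signals (intensity units, log axis) of the 9 interferon-stimulated genes in the 4 channels, each gene by its brightest probe, 1 spot per point. In 7 genes, all except Ifit2 and Irf1, the stimulated control cells (filled circles) lie lowest, while the 4 points of Irf1 lie close together.

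The IFIT genes encode RNA-binding proteins of the antiviral response that act together as complexes. Ifit1, whose product recognizes RNA with foreign 5′ ends, gave signals of 390.0 and 139 in unstimulated and stimulated control cells, and of 338 and 332 in THOC5-depleted cells. Only the stimulated control cells were low. The serum log2 ratio was -1.49 ± 0.247 in the control and -0.02 ± 0.205 in the depleted cells, that is, 2.81-fold lower in the former and a 1.02-fold difference in the latter. After scaling between arrays, 3 of the 4 levels lay within a log2 range smaller than their error, and the level in stimulated control cells was below them by 1.49. The probe lies at chr19:34723796-34723855 (build mm9).

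Ifit3, whose product binds and stabilizes IFIT1, showed a like pattern in a smaller range. Its signals were 1219.9 and 509 in the control and 949.9 and 814 in the depleted cells. Again the stimulated control cells were lowest, with the other 3 channels closer to each other. The serum log2 ratio was -1.26 ± 0.235 in the control (2.40-fold lower) and -0.22 ± 0.205 in the depleted cells (1.17-fold lower). The Ifit3 probe lies at chr19:34663105-34663164 (mm9). Ifit3b, a near-identical neighbouring copy, had 2 probes, and whether the Ifit3 probe also binds Ifit3b was not tested. The brighter Ifit3b probe gave 265 and 85.6 in the control and 210.4 and 159 in the depleted cells, with serum log2 ratios of -1.63 and -0.40. Ifit3b was looked at after the Ifit values had been seen.

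Ifit2 differed from its neighbours. It gave 624 and 452 in the control and 361 and 268.5 in the depleted cells. Here both channels of the THOC5-depleted array lay below both channels of the control array, on the signals as read and after scaling. After scaling the nearest of these levels, stimulated control and unstimulated THOC5-depleted cells, did not differ beyond their error (0.08 ± 0.205 on the log2 scale). The serum log2 ratio was almost the same on both arrays, -0.47 ± 0.209 in the control and -0.43 ± 0.208 in the depleted cells, with a difference of 0.04 ± 0.295. The Ifit2 probe lies at chr19:34650244-34650303 (mm9). The neighbouring gene Ifit1bl2, also chosen after its values were seen, gave 776 and 855 in the control and 456 and 675 in the depleted cells, so it was not lower after serum on either array.

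Isg15 and Usp18 are 2 sides of one modification. Isg15 encodes a ubiquitin-like protein that is joined to target proteins, and Usp18 encodes the protease that removes it and that also dampens signalling at the interferon receptor. Isg15 gave 3858.5 and 2173 in the control and 2914 and 2374 in the depleted cells with its brighter probe (chr4:155573649-155573708, mm9). Its second probe gave 256 and 145 in the control and 194 and 153 in the depleted cells. Both probes gave like values, with control log2 ratios of -0.83 ± 0.218 and -0.82 ± 0.220 and depleted log2 ratios of -0.30 ± 0.206 and -0.35 ± 0.209. The 2 probes of Isg15 differed by less than their error in each of the 4 comparisons.

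Usp18 gave 547 and 170.0 in the control and 346 and 223 in the depleted cells. Its serum ratio lay below that of Isg15 on both arrays. The log2 ratio was -1.69 ± 0.257 in the control (3.22-fold lower) and -0.63 ± 0.213 in the depleted cells (1.55-fold lower). The Usp18 probe lies at chr6:121220874-121220933 (mm9). After scaling, each step in the order of its 4 levels was larger than its error, from unstimulated control through unstimulated and stimulated THOC5-depleted to stimulated control cells.

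Rtp4 encodes a transporter chaperone for cell-surface receptors and is strongly induced by type I interferon. Its signals were 2082 and 422 in the control and 1144 and 726 in the depleted cells (probe chr16:23613668-23613727, mm9). The highest and the lowest signal were both on the control array, with the THOC5-depleted cells between them. The serum log2 ratio was -2.30 ± 0.295 in control cells, 4.94-fold lower and the largest change of the 9 genes. In THOC5-depleted cells it was -0.66 ± 0.213, 1.57-fold lower. As for Usp18, all 3 steps between its ordered levels were larger than their error.

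Oasl2 encodes a member of the 2′-5′ oligoadenylate synthetase family of double-stranded RNA sensors. It gave 566 and 234 in the control and 268.5 and 249.7 in the depleted cells. Unstimulated control cells stood alone on the high side. The serum log2 ratio was -1.27 ± 0.236 in the control (2.42-fold lower) and -0.11 ± 0.205 in the depleted cells (1.08-fold lower). The Oasl2 probe lies at chr5:115362168-115362227 (mm9).

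The interferon regulatory factors Irf7 and Irf1 are transcription factors. IRF7 drives the amplification of type I interferon production, and IRF1 activates interferon-responsive and antigen presentation genes. Irf7 was dim, at 53.1 and 19.4 in the control and 32.2 and 20.3 in the depleted cells. Both stimulated channels were low and near each other. Its serum log2 ratio was -1.46 ± 0.305 in the control and -0.67 ± 0.305 in the depleted cells. Of the 4 signals 3 lie below 50, so a floor of 50 on the signals sets these ratios to -0.09 and 0.0 by construction. With normexp and loess they were -0.69 and -0.45. The Irf7 probe is listed at chr7:148450664-148451014 (mm9).

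Irf1 was bright and had the serum ratio nearest 0 in control cells. It gave 14745 and 13631 in the control and 8934.5 and 9757 in the depleted cells (probe chr11:53590746-53590805, mm9). Serum log2 ratios were -0.11 ± 0.204 and 0.13 ± 0.204, both within their error of 0. The second probe of Irf1, drawn from another RefSeq transcript, gave 29.8 and 33.3 in the control and 6.8 and 4.4 in the depleted cells, where it was not well above background. Its level in THOC5-depleted cells was at least 2.39-fold lower in unstimulated and at least 2.49-fold lower in stimulated cells. These bounds set the normalized control signal against the lowest signal well above background, or the probe's own where that was higher. The bright probe was 1.33-fold and 1.12-fold lower in the same comparisons, so the 2 probes of Irf1 disagree in size.

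**Figure D3:**
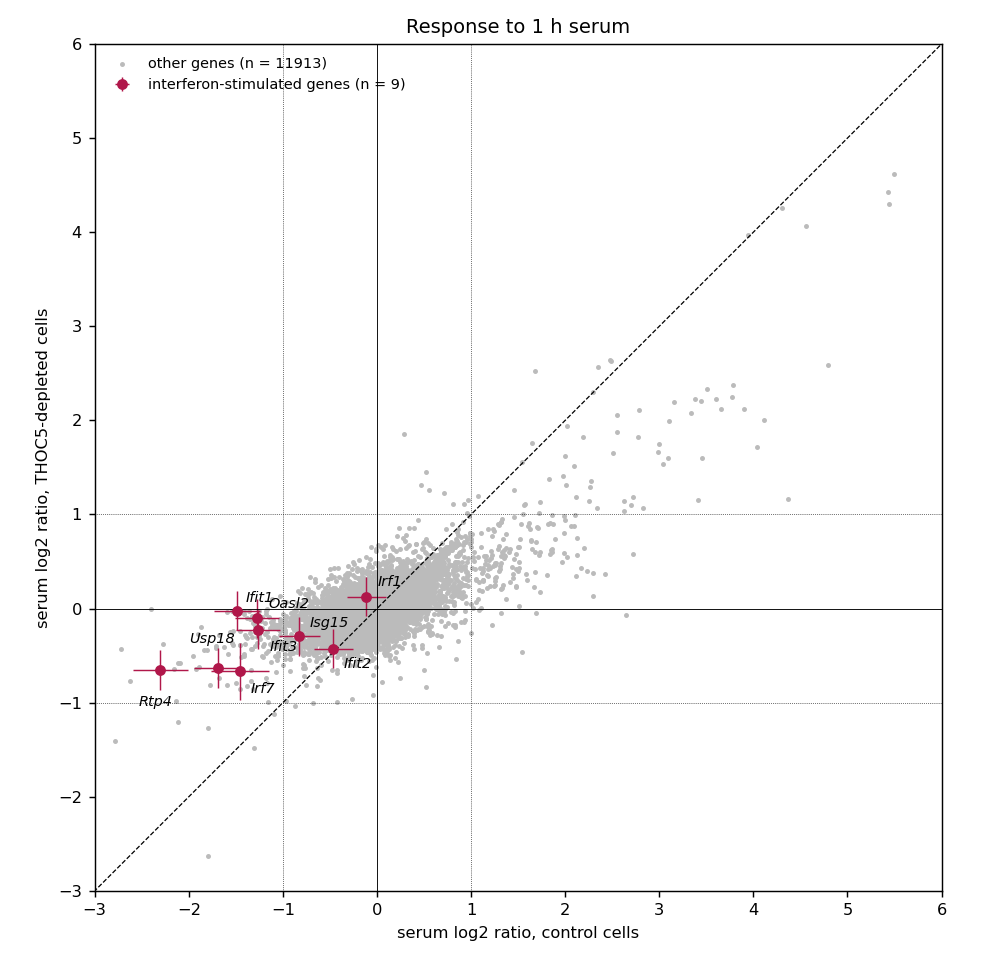
Serum log2 ratio in control cells (x axis) and in THOC5-depleted cells (y axis) for genes well above background in all 4 channels with an unstimulated control signal above 200, and for the 9 interferon-stimulated genes with the scanner's errors. Dotted lines mark 2-fold and the dashed line marks equal ratios. Of the 9 genes, 8 lie to the left of or above the dashed line by more than 0.2, and Ifit2 lies on it.

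The place of the genes among all others gives the scale of these falls. Of 11921 genes with all 4 channels well above background and an unstimulated control signal above 200, ordered from the lowest serum ratio in control cells, Rtp4 stood at position 5, Usp18 at 25, Ifit1 at 39, Oasl2 at 74, Ifit3 at 76 and Isg15 at 235. Ifit2 stood at 910 and Irf1 at 4661, and Irf7 was too dim to be ordered. In the same order for THOC5-depleted cells, Rtp4 stood at 39, Usp18 at 48, Ifit2 at 208, Isg15 at 781 and Irf1 at 9457, while Ifit3 stood at 1539, Oasl2 at 3921 and Ifit1 at 6020. These positions use the values that chose the genes and are a description.

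A smaller fall in THOC5-depleted cells was seen in most genes chosen by their fall in control cells. Of the 11921 genes, 144 were 2-fold or more lower after serum in control cells, 5 of the interferon-stimulated genes among them. Their median log2 ratio was -1.28 in the control and -0.36 in the depleted cells, where 6 of the 144 were 2-fold or more lower. With the set chosen on the other array, 7 genes with an unstimulated signal above 200 were 2-fold or more lower in THOC5-depleted cells, with a median of -1.21 there and -1.31 in control cells. The ratio was higher on the array not used for the choice in 141 of the 144 genes and in 5 of the 7. Each set was chosen by the values of 1 array, and no test was possible. Choosing genes by a low ratio on 1 array favours a higher ratio on the other, so these tallies are only a description.

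The difference of the serum log2 ratios, THOC5-depleted minus control, was above 0 for all 9 genes read by their brightest probe, with a median of 1.04. With all probes of a gene it was -0.28 for Irf1. It was past 2-fold in 5 of them. The values were 1.65 ± 0.363 for Rtp4, 1.47 ± 0.321 for Ifit1, 1.17 ± 0.313 for Oasl2, 1.06 ± 0.333 for Usp18 and 1.04 ± 0.312 for Ifit3. With normexp and loess 3 genes were past 2-fold, as Ifit3 came to 0.996 and Usp18 to 0.885. Irf7 at 0.79, Isg15 at 0.53, Irf1 at 0.24 and Ifit2 at 0.04 followed. Over 17239 genes, 0.812% were past 2-fold in this direction and 1.16% in the other. The same values enter the serum ratios above, so this is another view of them.

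Levels in THOC5-depleted over control cells differed between unstimulated and stimulated cells. In unstimulated cells 8 of the 9 genes had a lower level in THOC5-depleted cells, with a median log2 difference of -0.42 after scaling, but 0 of 9 were past 2-fold. Oasl2 was lowest at -0.84 ± 0.205, a 1.79-fold difference, followed by Rtp4 at -0.58 ± 0.204, Irf7 at -0.57 ± 0.246, Ifit2 at -0.55 ± 0.204, Usp18 at -0.42 ± 0.204 and Irf1 at -0.41 ± 0.204. Isg15 at -0.09, Ifit3 at -0.08 and Ifit1 at 0.02 were within their error of 0. Over 19089 genes, 3.25% were 2-fold or more lower and 3.08% 2-fold or more higher in unstimulated THOC5-depleted cells.

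In stimulated cells 7 of the 9 genes had a higher level in THOC5-depleted cells, with a median log2 difference of 0.44, and 2 were 2-fold or more higher. These were Ifit1 at 1.49 ± 0.209, a 2.81-fold difference, and Rtp4 at 1.07 ± 0.204, a 2.10-fold difference. Rtp4 was no longer past 2-fold with normexp and loess (0.97), without dye normalization (0.92) or without scaling (0.78), and 1 gene then was. Ifit3 came next at 0.96 ± 0.204, then Usp18 at 0.63, Isg15 at 0.44, Oasl2 at 0.33 and Irf7 at 0.22 ± 0.383. Ifit2 was lower in THOC5-depleted cells at -0.51 ± 0.205, and Irf1 at -0.17 was within its error of 0. Over 18706 genes, 3.57% were 2-fold or more higher and 3.11% 2-fold or more lower. Without scaling between the arrays all of these values shift down, and Isg15 and Oasl2 then come to 0.13 and 0.09.

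**Figure D4:**
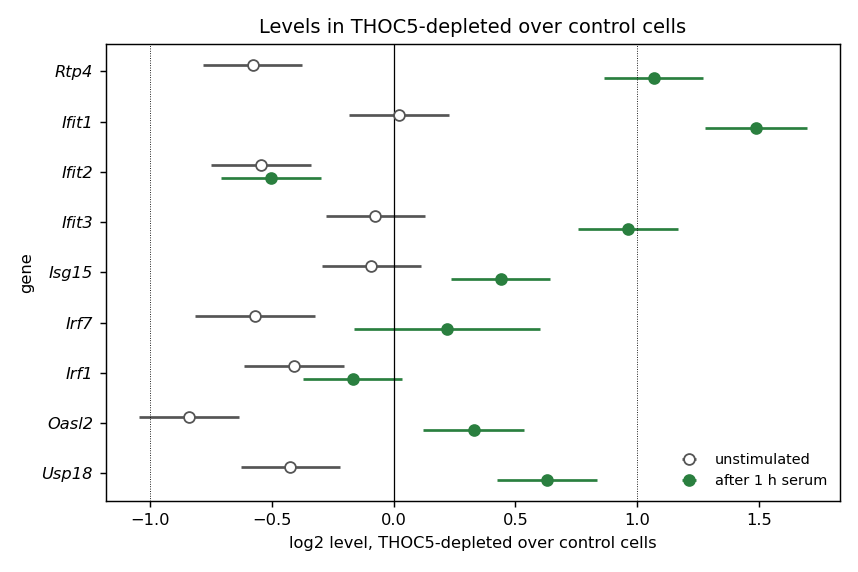
Log2 level in THOC5-depleted over control cells for the 9 genes, in unstimulated cells (open points) and after 1 h of serum (filled points), with the scanner's combined error as bars and dotted lines at 2-fold. The filled points of Ifit1 and Rtp4 lie above 1, and both points of Ifit2 lie near -0.5.

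The order of the 4 levels after scaling was the same in 6 genes. In Rtp4, Ifit3, Isg15, Irf7, Oasl2 and Usp18 unstimulated control cells were highest, followed by unstimulated THOC5-depleted, stimulated THOC5-depleted and stimulated control cells. Neighbours in this order did not differ beyond their error for the first pair in Ifit3 and Isg15, the middle pair in Oasl2 and the last pair in Irf7. In Ifit2 the middle pair, and in Ifit1 the first and the middle pair, also did not differ beyond their error. In Irf1 no neighbouring pair differed beyond its error, and its whole range was 1.33-fold. The range from the highest to the lowest level was 4.94-fold for Rtp4, 3.22-fold for Usp18, 2.85-fold for Ifit1 and 1.96-fold for Ifit2.

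Markers of leukocytes, which express many of these genes strongly, were compared on the same arrays. Of 10 macrophage and leukocyte markers on the arrays, 7 were well above background in at least 1 channel, and Lyz2, Tyrobp and Fcgr1 were not in any. Itgam, Csf1r and Cd14 were well above background in all 4 channels. Itgam gave 6314 and 8178 in the control and 7481.5 and 8699.8 in the depleted cells. Csf1r gave 387 and 538, then 383 and 433, and Cd14 gave 584 and 527, then 418 and 377. The summed signal of this list was 7361 and 9300 in the control and 8362 and 9586 in the depleted cells, most of it from Itgam. Cd68 was at least 2.35-fold higher in unstimulated and at least 2.06-fold higher in stimulated THOC5-depleted cells at signals of 24.6 and 26.0, and Ptprc at least 1.44-fold and 1.15-fold higher at 14.4 in both. Aif1, at 25.1 in unstimulated control cells and not well above background in the other 3 channels, was at least 1.98-fold lower in unstimulated THOC5-depleted cells, and Adgre1 at least 1.10-fold lower. Of 5 epithelial markers, 4 were well above background in at least 1 channel, and Epcam was at least 2.57-fold and 2.45-fold lower in unstimulated and stimulated THOC5-depleted cells, at signals of 32.1 and 32.6 in control cells. Of 5 endothelial markers 3 were, and Cdh5 was 1.78-fold and 2.17-fold lower, at 42.7 and 50.7 in control cells, while Pecam1 and Kdr differed by less than their error. The summed signal of the epithelial list was 198 and 226 in the control and 156 and 126 in the depleted cells, and that of the endothelial list was 1016 and 1140, then 892 and 890. The part of these markers in the results was not tested.

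Other type I interferon-stimulated genes were also mostly lower after serum. Of 72 listed symbols, none of them among the 9, 68 were on the arrays and 62 were well above background in at least 1 channel. In control cells 17 of 60 were 2-fold or more lower after serum and 0 were higher, with a median log2 ratio of -0.59. In THOC5-depleted cells 0 of 60 passed 2-fold, with a median of -0.15. Over all genes 2.3% were lower and 2.89% higher in control cells, and 0.625% lower and 1.22% higher in THOC5-depleted cells. The counts of 0 are thus near the background. Ratios were below 0 in 57 of the 60 in control cells and in 44 of the 60 in THOC5-depleted cells. The difference between the arrays was above 0 in 49 of 55, with a median of 0.40 against 0.01 over all genes.

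Single genes of this list differed in how they moved. Mx1, which encodes a dynamin-like GTPase that blocks viral ribonucleoproteins, gave 28.2 and 7.8 in the control and 25.0 and 25.9 in the depleted cells. It was at least 2.01-fold lower after serum in control cells, where the stimulated signal was not well above background, and at least 2.06-fold higher in stimulated THOC5-depleted than control cells. Rsad2, which encodes the radical enzyme viperin, was not lower after serum, with 218 and 227 in the control and 297 and 459 in the depleted cells, and was higher by 1.25 on the log2 scale in stimulated THOC5-depleted cells. Ddx60, a helicase gene, was not well above background in control cells and gave 27.7 and 27.6 in THOC5-depleted cells, at least 2.75-fold and 2.20-fold higher. Among genes chosen after their values were seen, Mx2, a relative of Mx1, had serum log2 ratios of -2.20 in the control and -0.35 in the depleted cells. Xaf1, an apoptosis gene, had -1.54 and -0.37, and Oas1a, an oligoadenylate synthetase gene, had -1.16 and -0.30.

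A few genes of this list were lower in THOC5-depleted cells whether or not serum was given. Ifi27l2a gave 786 and 502 in the control and 185 and 155 in the depleted cells, with log2 level differences of -1.84 and -1.44. Ifitm1, a membrane protein gene that restricts viral entry, gave 631 and 504 in the control and 153 and 164 in the depleted cells, with differences of -1.80 and -1.38. Trim25, the ubiquitin ligase that activates RIG-I, had differences of -1.30 and -0.75. Over the list, 4 of 61 genes were 2-fold or more lower and 1 higher in unstimulated THOC5-depleted cells, while 2 of 60 were lower and 7 higher in stimulated ones. Over all genes the shares were 3.25% lower and 3.08% higher, then 3.11% lower and 3.57% higher, so the 1 higher and the 2 lower genes are near the background. Of the 2 brightest genes, Oas1b had serum log2 ratios of -0.03 and 0.02, and Sp110, a nuclear body gene, had 0.67 and 0.47, above 0 on both arrays.

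Interferon-gamma-stimulated GTPases and antigen presentation genes were mostly below 0 after serum in control cells, 24 of 28, but not in THOC5-depleted cells, with 14 below and 13 above 0. In control cells 6 of 28 were 2-fold or more lower and 0 higher, with a median log2 ratio of -0.41, and in THOC5-depleted cells 0 of 27 passed 2-fold, with a median of -0.07. Over all genes 2.3% were lower in control cells, while 0.625% were lower and 1.22% higher in the depleted cells, so a count of 0 there is near the background. Of the 6, Irgm2, Igtp, Tgtp2, Irgm1 and Ifi47, immunity-related GTPase genes chosen after their values were seen, had control log2 ratios from -1.87 to -1.03 and depleted log2 ratios from -0.43 to -0.20. The other was Gbp7, chosen in the same way and at least 2.24-fold lower in control cells. Beta-2-microglobulin (B2m) and the proteasome activator gene Psme2, the brightest of the list, had control ratios of 0.03 and -0.41. Gbp6 was higher by 1.18 in stimulated THOC5-depleted cells. Gbp2b was at least 3.76-fold lower in unstimulated and lower by 2.03 on the log2 scale in stimulated THOC5-depleted cells, at signals of 55.9 and 82.4 in control cells. Gbp4 was at least 1.59-fold lower in unstimulated and at least 1.10-fold lower in stimulated THOC5-depleted cells, and Psmb8 was at least 1.24-fold lower in stimulated ones.

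**Figure D5:**
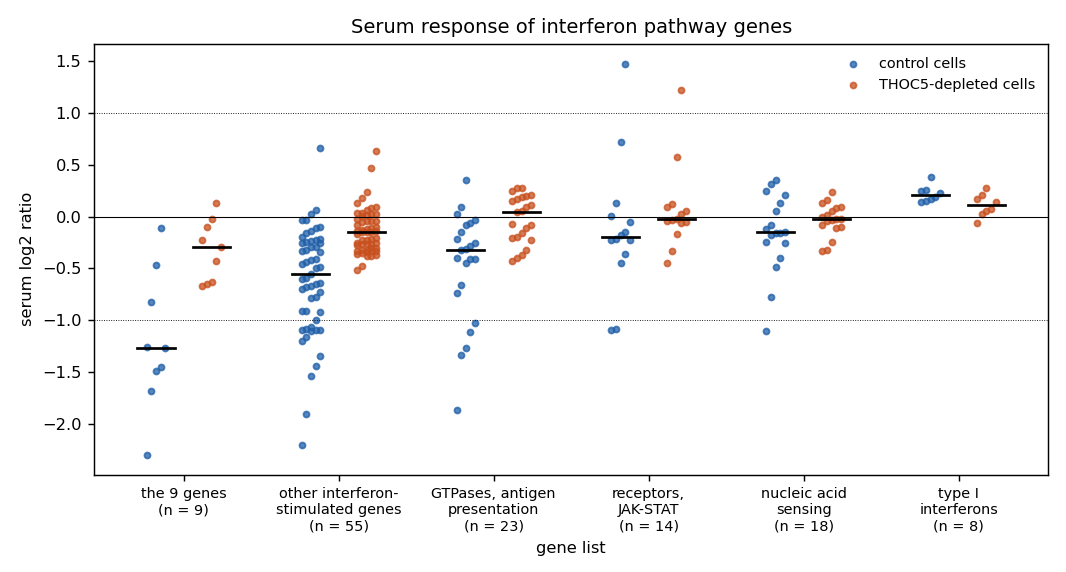
Serum log2 ratios in control and THOC5-depleted cells for the 9 genes and for genes of 5 interferon pathway lists well above background in all 4 channels, with the median as a bar and dotted lines at 2-fold. The median of the other interferon-stimulated genes is -0.55 in the control and -0.15 in the depleted cells, and that of the type I interferons is above 0 in both.

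Interferon genes themselves were mostly above 0 after serum, though by little and mostly within the scanner's error. Of 16 listed type I interferon symbols, 13 were on the arrays and 9 were well above background in at least 1 channel. No type I interferon gene was past 2-fold in any of the 4 comparisons. Over all genes between 0.625% and 3.57% were past 2-fold in one direction, so 0 of 9 is near the background. Ratios were above 0 in 9 of 9 in control cells and in 8 of 9 in THOC5-depleted cells, and the median serum log2 ratio was 0.23 in the control and 0.14 in the depleted cells. Beyond their error were only Ifna1, Ifna5 and Ifnab in control cells and Ifna11 in THOC5-depleted cells. Irf4, Irf8 and Ifnlr1, not well above background in any channel, had ratios of 0.23, 0.28 and 0.29 in control cells. In THOC5-depleted cells they had 0.07, 0.1 and 0.12. Ifna4 and Tap1, also not well above background, were below 0 on both arrays. Whether the interferon ratios reflect serum was not tested. The brightest, Ifna1, gave 213 and 279 in the control and 199.8 and 211 in the depleted cells, and Ifna14 gave 134 and 153, then 123 and 138, but these genes are near-identical copies that a probe may not tell apart. Ifnb1, the interferon beta gene, chosen after its values were seen, was not well above background in any channel. Of the other interferons, Ifng was not well above background either, and Ifnl3 gave 155 and 187 in the control and 133 and 138 in the depleted cells.

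Receptor and signalling genes went both ways. Of 15 measured genes of the receptor and JAK-STAT list, 2 were 2-fold or more lower after serum in control cells, Stat2 at -1.10 and Irf9 at -1.09, both subunits of ISGF3, chosen after their values were seen (Irf9 also by its pattern), and both also on the list of other interferon-stimulated genes. Over all genes 2.3% were lower and 2.89% higher in control cells, and 0.625% lower and 1.22% higher in the depleted cells, so the single higher gene on each array is near the background. Their log2 ratios in THOC5-depleted cells were -0.17 and -0.33. Socs1, an inhibitor of JAK kinases, was higher after serum, with 2115 and 5891 in control cells, 1206 and 1801 in the depleted cells, and log2 ratios of 1.48 and 0.58. In stimulated cells it was lower in THOC5-depleted cells by a log2 difference of -1.40. Socs3, a related inhibitor also chosen after its values were seen, was the single gene of the list past 2-fold in THOC5-depleted cells, at 1.23 compared with 0.72 in control cells. The receptor gene Ifngr1 and the kinase gene Jak1, the brightest by the mean over channels, stayed between -0.22 and 0.06 on both arrays.

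Nucleic acid sensors, the genes upstream of interferon production, had 1 of 19 members 2-fold or more lower in control cells after serum, Zbp1 at -1.11 (chosen after its value was seen), and 0 of 18 in THOC5-depleted cells, near the 2.3% and 0.625% of all genes. Zbp1, like some other sensors, is also on the list of other interferon-stimulated genes and was counted among the lower genes there. Samhd1, a dNTP hydrolase gene, and Traf3, an adaptor gene, were brightest, with control log2 ratios of -0.18 and 0.20. Among the interferon regulatory factors other than Irf1 and Irf7, 2 of 7 were 2-fold or more higher in control cells, Irf5 at 1.37 and Irf2bp2 at 1.34, compared with 2.89% of all genes. These had 0.11 and 0.25 in THOC5-depleted cells. Irf9 was the single factor 2-fold or more lower. Irf3, which is activated by phosphorylation, had -0.52 and -0.13.

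Interferon-inducible chemokines were mostly above 0 after serum, 4 of 5 in control cells with a median log2 ratio of 0.96, and 4 of 6 in THOC5-depleted cells with a median of 0.56. In control cells 2 of 5 were 2-fold or more higher after serum, Ccl2 with a log2 ratio of 1.42 and Cxcl10 with 1.29, and 0 were 2-fold or more lower. In THOC5-depleted cells Ccl2 had 0.63 and Cxcl10 had 0.89, and 0 of 6 were past 2-fold. Over all genes 2.89% were higher and 2.3% lower in control cells, and 1.22% higher and 0.625% lower in the depleted cells, so the counts of 0 are near the background. Ccl7 had 0.96 and 0.49. Ccl5, the single chemokine below 0 in control cells, had -0.62 and -0.03, with a level higher by 0.79 on the log2 scale in stimulated THOC5-depleted cells. Cxcl10, Ccl7 and Ccl5 were chosen after their values were seen. Cxcl11, the other bright chemokine of the list with Ccl2, gave 93337 and 99139 in the control and 94917 and 90428 in the depleted cells.

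The genes whose pattern over the 4 channels was most like the median of the 9 were found by distance. Levels were scaled, centred per gene and compared by Euclidean distance with 11225 genes that had every signal above 200. The nearest were Rpp25l (distance 0.055), Zfp329 (0.088), Zfp354a (0.097), Irf9 (0.124) and Zfp120 (0.126). Irf9 gave 3813 and 1794 in the control and 2691 and 2144 in the depleted cells. The 9 genes themselves stood at distances from 0.249 for Isg15 to 0.912 for Irf1, so these 5 genes lay nearer to their median pattern than any of the 9. The likeness rests on 4 channels of 2 arrays.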

How the data were processed

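Total RNA from 4 conditions was labelled and hybridised as pairs to 2 two-color Agilent arrays. The authors extracted the spots with Agilent Feature Extraction 10.7.3.1, and the deposited processed signals are intensity values after background subtraction and dye normalization within an array. The deposited LogRatio is log10 of Cy5 over Cy3. A deposited series table holds the log10 ratios without their sign and served as an alternative with the scanner's sign. Here, outlier spots were left out, spots of a probe were averaged on the log2 scale, and average intensities were made equal between arrays with Aquantile in limma 3.58.1 (R 4.3.3), so log2 values were computed from the deposited intensity signals. Of 39429 non-control probes, 35777 had a gene symbol, 26412 of these through a RefSeq accession of GRCm38.p6. A gene with several probes was read from the brightest.

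A comparison counted genes well above background on at least 1 side and a change of 2-fold. There was 1 array per condition, so no test was made and no p-value is given; array number limits the precision. Across 399 probes printed 10 times, spots differed in log2 ratio by a median SD of 0.028 and 0.031. Recovery of known differences was tested on simulated data.

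The 9 genes and the pathway lists were chosen with earlier results of these data known. Named were the 9 genes with every probe, Thoc5, up to 6 genes of a list past 2-fold in THOC5-depleted over control cells together with the 2 brightest, and the 5 genes nearest in pattern; all other named genes, single markers included, were chosen after their values were seen. Promoter windows and symbols came from RefSeq. Alternatives were loess after normexp (offset 50), skipping the dye normalization, all probes of a gene, outlier spots kept, a floor of 50, scaling by the 75th percentile, no scaling, quantile normalization, folds of 1.5 and 3, and genes well above background in all channels.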

Additional observations from a re-analysis of the deposited data

Results flagged for a closer look

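With 1 array per group, the serum log2 ratio of some named genes had opposite signs on the 2 arrays. None of these differences was tested. For Irf1 the THOC5-depleted minus control difference was 0.24 for the bright probe and -0.80 for the dim probe, which was not well above background on the THOC5-depleted array. For other named genes the differences were 0.27 for Ifngr1, -0.026 for Jak1, 0.42 for Ifitm1, 0.051 for Oas1b, 0.44 for Gbp6 and -0.16 for Cxcl11. For named cell type markers they were -0.094 for Fn1, -0.34 for S100a4, -0.29 for Cdh5 and -0.077 for Pecam1. In Jak1, Oas1b, Cxcl11, Fn1 and Pecam1 both ratios lay within 0.1 of 0. In 5 more genes at least 1 channel was not well above background, so the sign of a ratio there is uncertain. These differences were 1.91 for Mx1, which was at least 2.01-fold lower after serum in control cells and had a log2 ratio of 0.051 in THOC5-depleted cells, 1.03 for Gbp4, 0.71 for Lum, 0.77 for Ptprc and 0.47 for Adgre1.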

How the results depend on the processing

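No paired analysis was possible because each group has 1 array. Of 279 values of single genes under alternatives, 248 moved by less than the error and 0 called values changed sign; of 98 counts and medians, 84 stayed within the error or, for counts, within 1.5 times. For the serum response in control cells, 6 genes passed 2-fold, 5 under normexp and loess or a floor of 50 (without Irf7), 7 a fold of 1.5 and 2 a fold of 3. For that in THOC5-depleted cells, 3 passed a fold of 1.5. In unstimulated cells 1 gene passed a fold of 1.5, and 1 passed 2-fold with all probes of a gene (Irf1, by its dim probe) and 1 other without scaling (Oasl2), when the median was -0.72. In stimulated cells 3 genes passed 2-fold with all probes (Ifit1 and Rtp4 higher, Irf1 lower), 4 passed a fold of 1.5 and 0 a fold of 3, and 1 (Ifit1) passed 2-fold under normexp and loess, without dye normalization and without scaling, when the median was 0.13. Leaving out Irf1, and the difference of serum responses, were added after seeing the data, and that difference passed 2-fold in 3 genes under normexp and loess and 3-fold in 1. Without scaling the median of all genes was -0.26 and -0.26 in unstimulated and stimulated cells, and without dye normalization -0.12 and -0.10. Ifit1 in unstimulated cells ranged from -0.21 to 0.08 and Irf7 in stimulated cells from -0.05 to 0.35. Irf1 ranged from -0.11 to 0.09 and from -0.26 to 0.28 in the serum responses of control and THOC5-depleted cells and from -0.28 to 0.24 in their difference. None of these has a settled direction. Irf7 moved most in the serum response of control cells, from -1.52 to -0.09 with a floor of 50. The causes were not tested. Low signals limit Irf7 and the dim Irf1 probe.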
